A study of Mus musculus with 2 samples.

Results

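The cells described here are the leukemia cells in which 6 immediate early genes, Fos, Fosb, Jun, Junb, Egr1 and Ier2, took the highest share of the captured transcripts. A barcode was kept as a cell when 500 or more genes were detected and mitochondrial transcripts made up no more than 10% of its UMIs, each UMI standing for 1 captured transcript molecule. The kept cells of both libraries were ranked together by the summed share of these 6 genes. Members are the 10% with the highest share, provided that they held at least 3 such UMIs. They number 1324 of 13310 kept cells, and the other kept cells of the same library are called the remaining cells. The 6 genes chose the members, so their levels below are a description of that choice.

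The samples are AML1-ETO9a (AE9a) leukemia cells, in which a truncated fusion of AML1 and ETO drives acute myeloid leukemia in mice. Both groups carried the fusion with GFP from a retrovirus, floxed Usp18 and UBCER-Cre, whose Cre is driven by the ubiquitin C promoter, is not specific to a cell type and enters the nucleus under tamoxifen. Transplanted mice that had become sick received oil or tamoxifen, and splenic GFP+ Lin- c-Kit+ cells, which have the Kit receptor and lack mature lineage markers, were sorted on day 3 counted from the first dose. Each group is 1 library of pooled cells from 3 mice, with no map from cells to mice. The genotype labels give Usp18 f/f for oil and a deletion on both alleles for tamoxifen. The treatment labels also give Usp18 f/f leukemia cells for both groups. The treatment protocol gives Usp18 +/f instead, so the groups are named by injection. The labels used here give neither the strain nor the age of the recipients.

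Immediate early genes are transcribed within minutes of a stimulus, without new protein synthesis, through factors that are already present and that kinases such as the MAP kinases modify. Fos and Jun proteins pair into AP-1, Egr1 is a zinc finger transcription factor and Ier2 is a small nuclear protein. Their transcripts are short-lived, and blood cells make them after growth factor or cytokine signals but also when tissue is dissociated or sorted.

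The whole libraries held 7774 and 7311 barcodes with medians of 7904.5 and 7650 UMIs for oil and tamoxifen, and 6838 and 6472 barcodes were kept. Usp18, the targeted gene, was higher in the library labelled tamoxifen among members and remaining cells alike, as given below, and whether the counts cover the deleted exons was not tested. There are no replicate libraries, so no test was run, and every interval given is at 95% and covers counting error only. The libraries shared 14 barcodes. None of these was a member in both, and 2 belonged to a member of either.

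Members made up a larger share of the cells in the library labelled oil. They were 962 of 6838 cells there, or 14.1% (13.3 to 14.9%, exact Clopper-Pearson interval). They were 362 of 6472 cells in the library labelled tamoxifen, or 5.59% (5.05 to 6.18%). The log2 ratio of the shares, tamoxifen over oil, was -1.33 (-1.498 to -1.16). Under a stricter filter of 1000 genes and 5% mitochondrial UMIs, with 83 and 61 members, it was -0.64 (-1.09 to -0.19). The shares differed by more than counting error under both filters, but whether pools of other mice would differ in the same way cannot be told from 1 library a group.

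The plot of the share by cell shows no gap at the limit. The lowest member held 12 such UMIs of 5930, or 2024 when scaled to a total of 1000000 UMIs (CPM), and the highest cell below it held 18 of 8914, or 2019 CPM. Among members the summed share had a lowest value of 2026, a median of 3017 and a highest value of 18756 CPM in the library labelled oil. The same values were 2024, 2927 and 15586 CPM in the library labelled tamoxifen. The remaining cells had medians of 473 and 280 CPM, and 1572 kept cells, 11.8%, had no UMI of the 6 genes. A further 7 cells ranked high enough but held fewer than 3 such UMIs, and their depth was 736 to 978 UMIs.

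**Figure D1:**
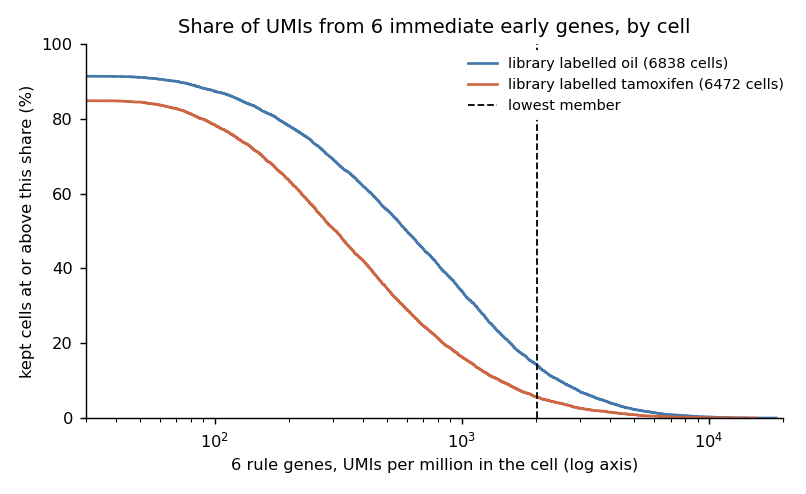
For each kept cell, the share of UMIs from the 6 genes (CPM, log axis) is set against the percentage of kept cells at or above that share. The curve of the library labelled oil lies above that of the library labelled tamoxifen, and at the dashed line of the lowest member they stand at 14.1% and 5.59%.

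Members were shallower than the remaining cells. Their median was 5193 against 9451 UMIs in the library labelled oil and 4404 against 8482 UMIs in the library labelled tamoxifen. They had medians of 2113 against 2942 and of 1855.5 against 2646 detected genes. The median mitochondrial share was close, at 6.88% against 6.82% for oil and 6.47% against 6.86% for tamoxifen. The median share of ribosomal protein transcripts was lower in members, at 19.9% against 25.1% and 20.97% against 28.7%. Because depth moves with membership, many values below are also given against remaining cells weighted to the members' depth.

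Barcodes that failed the cell filter were also looked at, since membership was defined on kept cells only. Among the 936 and 839 that failed, the 6 genes summed to 968 CPM (939 to 999) for oil and 559 CPM (537 to 582) for tamoxifen. Of these, 154 (16.5%) and 47 (5.60%) passed the members' limit on the share. Both percentages lie near those of the kept cells of the same library.

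Jun, the AP-1 subunit that can pair with itself, supplied the most transcripts of the 6 genes in members. It stood at 1574 CPM in members against 283 CPM in remaining cells for oil, and at 1542 against 148 CPM for tamoxifen. It made up 47.2% and 44.9% of the members' UMIs of the 6 genes. Jun had at least 1 UMI in 98.1% (97.1 to 98.9%) of members for oil and 97.0% (94.6 to 98.5%) for tamoxifen, and it had more UMIs than each of the other 5 genes in 692 and 230 members. Junb, a second Jun protein, stood at 426 against 90.2 CPM and at 486 against 72.4 CPM.

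Transcripts of Fos and Fosb, whose proteins bind DNA as partners of Jun proteins, differed more than those of Jun and Junb. Fos stood at 375 against 29.5 CPM for oil and 417 against 13.7 CPM for tamoxifen. Fosb stood at 430 against 45.3 CPM and 339 against 14.8 CPM. Egr1 was at 181 against 15.7 CPM and 295 against 16.2 CPM. Ier2 differed least among the 6 genes, at 349 against 119 CPM and 358 against 103 CPM. Summed, the 6 genes were at 3334 against 583 CPM and at 3437 against 368 CPM.

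The 6 genes were not all found in every member. The median member held UMIs of 4 of them in both libraries, and the median remaining cell held UMIs of 2. All 6 were found in 151 members for oil and 43 for tamoxifen, while 6 and 3 members held a single one. Egr1 was the gene seen in the fewest members for oil, with a UMI in 43.3% (40.2 to 46.5%), and Fosb for tamoxifen, with 47.2% (42.0 to 52.5%). The chance of at least 1 UMI was also calculated for each cell as if cut to 3000 UMIs. This left out 119 and 64 shallower members and 389 and 281 remaining cells. The mean chance for Fos was 48.5% in members against 7.32% in remaining cells for oil. For tamoxifen these were 44.6% against 3.74%. No cell type that should lack these genes was identified in the sort, so the level that free RNA alone would give was not measured.

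To see how far the 6 genes move together in cells, each was left out of the ranking in turn and its level read in the 10% of cells highest in the other 5. Every left-out gene was higher in the cells so chosen, in both libraries. Fos was at 321 CPM (306 to 336) in 948 chosen cells against 35.7 CPM (34.2 to 37.3) in the others for oil, an 8.98-fold difference. For tamoxifen it was at 339 CPM (313 to 366) in 375 chosen cells against 15.9 CPM (14.9 to 16.9), which is 21.4-fold. Fosb differed 6.47-fold for oil and 17.2-fold for tamoxifen, and Egr1 differed 8.08-fold and 12.7-fold. Jun differed 3.88-fold and 5.72-fold, and Junb differed 3.68-fold and 5.14-fold. Ier2 had the smallest differences, 2.43-fold and 2.78-fold. All these differences are from summed counts and were not matched for depth.

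**Figure D2:**
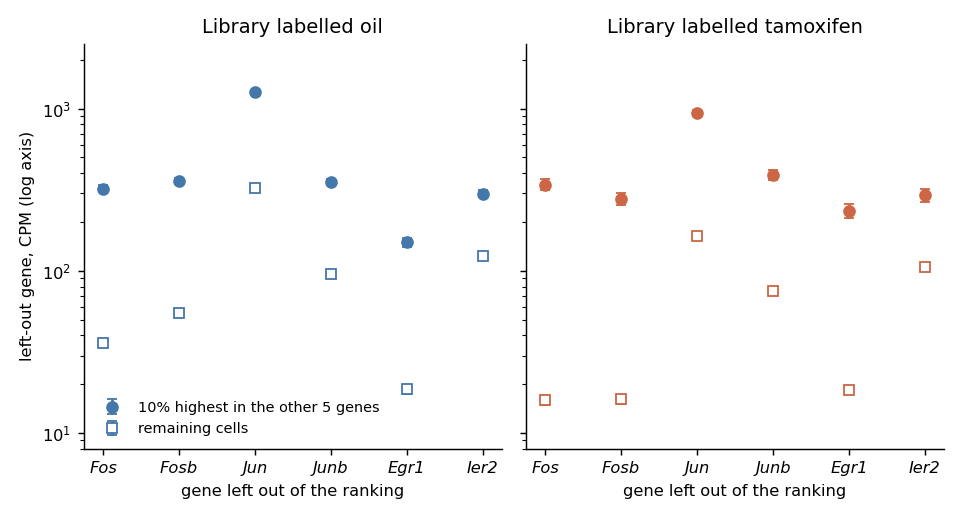
Level of each gene (CPM, log axis) in the 10% of cells highest in the other 5 genes (filled circles) and in the other kept cells (open squares), with exact 95% Poisson intervals that are often smaller than the symbols. Each circle lies above its square, from 2.43-fold for Ier2 in the library labelled oil to 21.4-fold for Fos in the library labelled tamoxifen.

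Across single cells thinned to 3000 UMIs, the rank correlation was highest between Fos and Fosb, at 0.42 over 6330 cells for oil and 0.34 over 6127 cells for tamoxifen. The other 14 pairs lay between 0.06 and 0.28 in both libraries. These are correlations of sparse counts across cells that share a library and a fixed depth, and the low ones carry no finding.

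The stretches just upstream of 6 start sites are shown as the regulatory sequence nearest the genes that the rule used and of a pair of genes that were among the highest in members. The 4 rule genes for which RefSeq promoters were at hand are given with Dusp1 and Zfp36, which were not used in the rule. Each is the 250 bases before the start site on the gene's own strand in GRCm38.p6. Fos lies on the plus strand (chr12:85473640-85473889). The others lie on the minus strand, Fosb at chr7:19310046-19310295, Jun at chr4:95052223-95052472, Junb at chr8:84978749-84978998, Dusp1 at chr17:26508473-26508722 and Zfp36 at chr7:28379229-28379478. Ier2 and Egr1 are on chromosomes 8 and 18. Capitals mark matches, on either strand, to TGACG, the short form of the cyclic AMP response element (CRE), to the full CRE TGACGTCA, to the AP-1 site TGACTCA and to the CArG box that serum response factor binds.
Fos: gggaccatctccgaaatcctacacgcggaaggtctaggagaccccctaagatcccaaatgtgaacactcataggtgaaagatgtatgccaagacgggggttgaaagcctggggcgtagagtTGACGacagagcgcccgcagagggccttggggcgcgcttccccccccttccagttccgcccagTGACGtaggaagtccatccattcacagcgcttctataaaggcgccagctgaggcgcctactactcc
Fosb: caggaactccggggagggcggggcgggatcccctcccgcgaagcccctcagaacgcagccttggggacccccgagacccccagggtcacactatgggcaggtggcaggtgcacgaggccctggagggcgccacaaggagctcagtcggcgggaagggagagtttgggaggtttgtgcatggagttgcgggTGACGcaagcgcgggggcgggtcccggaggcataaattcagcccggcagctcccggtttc
Jun: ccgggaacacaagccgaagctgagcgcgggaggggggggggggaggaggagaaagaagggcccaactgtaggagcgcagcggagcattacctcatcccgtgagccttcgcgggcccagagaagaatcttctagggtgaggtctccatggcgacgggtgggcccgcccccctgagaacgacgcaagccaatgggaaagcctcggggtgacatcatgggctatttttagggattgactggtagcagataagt
Junb: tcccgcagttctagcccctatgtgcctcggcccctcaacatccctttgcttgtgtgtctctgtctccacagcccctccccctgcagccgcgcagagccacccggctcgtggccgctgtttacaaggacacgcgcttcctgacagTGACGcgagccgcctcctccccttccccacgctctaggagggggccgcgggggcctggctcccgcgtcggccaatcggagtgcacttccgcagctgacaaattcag
Dusp1: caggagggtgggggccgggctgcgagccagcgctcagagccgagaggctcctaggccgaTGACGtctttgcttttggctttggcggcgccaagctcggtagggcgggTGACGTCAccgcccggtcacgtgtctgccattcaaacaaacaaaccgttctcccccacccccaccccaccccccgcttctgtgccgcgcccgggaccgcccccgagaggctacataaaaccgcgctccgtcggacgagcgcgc
Zfp36: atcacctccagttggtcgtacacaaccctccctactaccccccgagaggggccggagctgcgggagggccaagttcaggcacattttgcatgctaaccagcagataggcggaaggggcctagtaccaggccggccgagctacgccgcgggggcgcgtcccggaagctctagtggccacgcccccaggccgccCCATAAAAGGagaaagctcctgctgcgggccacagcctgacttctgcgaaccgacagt

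The short CRE stood in the Fos stretch 129 and 66 bases before the start, in Fosb 60 bases and in Junb 106 bases before it. In Dusp1 the full CRE began 143 bases before the start, which holds 2 overlapping short ones, and another short CRE began 191 bases before it. Zfp36 held a CArG box 58 bases before its start, and the Jun stretch held none of the 4 motifs. Of 32851 mouse promoters of this length, 17.8% held the short CRE, 1.55% the full CRE, 4.46% the AP-1 site and 1.47% a CArG box. These are matches of letters in a window, not binding sites.

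Many other genes differed between members and remaining cells, and far fewer did once depth was matched. Of 9140 genes with at least 200 UMIs in each library, the 6 rule genes left out, 1087 (11.9%) were at least 1.5-fold higher in members in both libraries and 629 (6.88%) at least 1.5-fold lower. In single libraries these were 15.2% higher and 8.37% lower for oil and 19.8% and 14.0% for tamoxifen. With counting intervals clear of 0 as well, 1037 (11.3%) and 579 (6.33%) passed in both. The median gene was at a log2 ratio of 0.10 for oil and 0.13 for tamoxifen. Against remaining cells weighted to the members' depth, 125 genes (1.37%) were higher and 76 (0.832%) lower, and 123 and 67 of these are among the first counts. Among cells below their library's median in cell cycle genes, where 7478 genes were tested, 269 (3.60%) were higher and 124 (1.66%) lower. In all 3 settings, 82 genes were higher and 23 lower. The balance of directions depended on the scale. With TMM scaling, which moved the median gene to -0.11 and -0.13, 512 genes were higher and 1261 lower, and with mitochondrial and ribosomal protein genes taken out of the total 782 were higher and 850 lower.

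**Figure D3:**
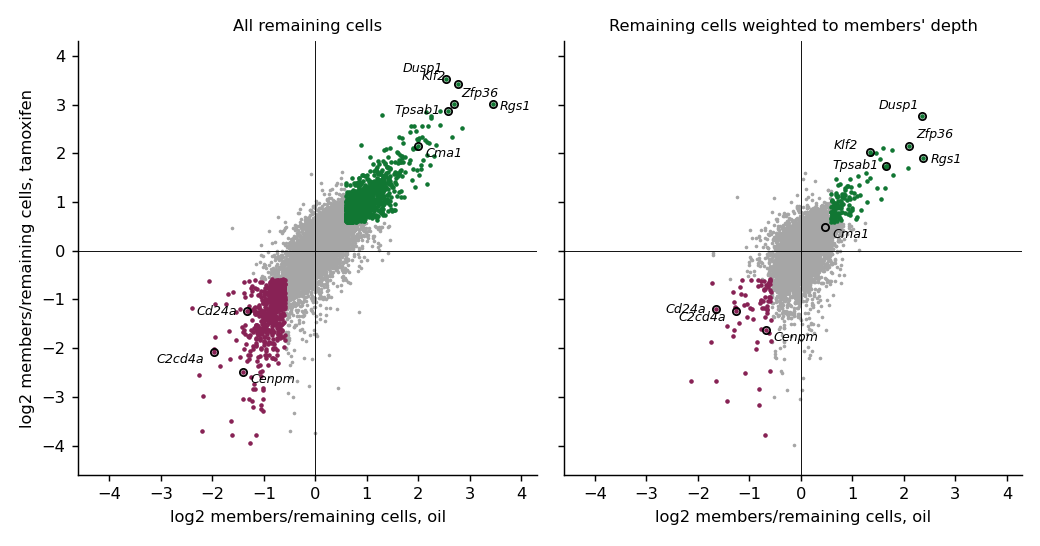
Each point is 1 of 9140 genes, with the log2 ratio of members over remaining cells in the library labelled oil (x axis) and in the library labelled tamoxifen (y axis), against all remaining cells (left) and against remaining cells weighted to the members' depth (right). Green and purple mark genes at least 1.5-fold higher and lower in both libraries, 1087 and 629 on the left but 125 and 76 on the right, and Pycr1, with no UMI in the tamoxifen members, is not drawn.

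Rgs1, which shortens signaling from G protein-coupled receptors, had the highest ratio of any gene with at least 20 CPM when genes were ordered by the library with the lower ratio. It stood at 119 CPM in members against 10.98 CPM in remaining cells for oil, a log2 ratio of 3.44 (3.28 to 3.59). It stood at 111 against 13.8 CPM for tamoxifen, or 3.01 (2.78 to 3.23). Rgs2, of the same family, was at 104 against 14.6 CPM and 80.3 against 13.9 CPM. Against depth-matched cells the log2 ratios of Rgs1 were 2.37 and 1.91, and those of Rgs2 were 2.08 and 1.70. Both genes therefore stayed over 1.5-fold higher with depth matched, at lower ratios.

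Genes that shut off growth factor signals were among the highest in members. Dusp1, a phosphatase that inactivates MAP kinases, was at 126 against 21.8 CPM for oil, a log2 ratio of 2.53 (2.40 to 2.66). It was at 127 against 11.1 CPM for tamoxifen, or 3.52 (3.30 to 3.73). Its depth-matched ratios, 2.36 and 2.76, changed less than those of Rgs1. Zfp36, which binds AU-rich transcripts and promotes their decay, was at 235 against 36.3 CPM and 187 against 23.1 CPM, and its depth-matched log2 ratios were 2.10 and 2.16. Of 16 listed genes of MAPK feedback and RNA decay, 8 were measured. Of these, 6 were at least 1.5-fold higher in both libraries and 0 lower, beside 11.9% and 6.88% of all genes. The list medians were 1.25 and 1.31 on the log2 scale. With depth matched, 4 were higher, beside 1.37% of all genes, and the medians were 0.60 and 0.79. At the low end of the list stood Dusp2, with ratios of 0.28 (-0.26 to 0.78) and -0.47 (-1.93 to 0.67), and Spred2, with 0.48 (0.15 to 0.80) and 0.72 (0.15 to 1.24).

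Immediate early genes that the rule did not use were also higher. Of 38 listed, 23 were measured. Of these, 14 were at least 1.5-fold higher in both libraries and 1 lower, beside 11.9% and 6.88% of all genes. The list medians were 0.91 and 1.25 against 0.10 and 0.13 over all genes. With depth matched, 9 were higher and 0 lower, beside 1.37% and 0.832% of all genes, and the medians were 0.51 and 0.53. The Krüppel-like factors Klf2 and Klf6 had the highest ratios of the measured genes without depth matching. Klf2, a factor of quiescence in lymphocytes, was at 344 against 50.6 CPM for oil, a log2 ratio of 2.76 (2.68 to 2.85), and at 476 against 44.3 CPM for tamoxifen, or 3.42 (3.31 to 3.53). Its ratios fell to 1.33 and 2.02 with depth matched. Klf6 was at 612 against 114 CPM and 683 against 92.7 CPM, with depth-matched ratios of 1.77 and 2.06.

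Btg2, an antiproliferative gene that p53 also controls, was at 231 against 50.1 CPM for oil and at 241 against 51.8 CPM for tamoxifen, ratios of 2.21 and 2.22 that became 1.66 and 1.75 with depth matched. Rhob, a small GTPase made early after stimulation, was at 45.0 against 9.48 CPM and 52.8 against 7.81 CPM, with depth-matched ratios of 1.37 and 1.99. Myc, a growth regulator and itself an immediate early gene, was the 1 lower gene of the list, at 30.9 against 53.3 CPM, a ratio of -0.78 (-1.01 to -0.57), and at 24.2 against 48.2 CPM, or -0.99 (-1.45 to -0.57). Id1, an inhibitor of basic helix-loop-helix factors, had ratios of -0.49 and -0.65. The list thus held genes on both sides, and Myc was under 1.5-fold lower with depth matched, at -0.38 and -0.52.

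Among the other AP-1 proteins and their partners, 5 of 12 were measured, with medians of 0.54 and 0.89. Of these, 2 were higher in both libraries and 0 lower, beside 11.9% and 6.88% of all genes. Jund, a Jun protein that many resting cells make, was at 1106 against 295 CPM for oil, a log2 ratio of 1.91 (1.86 to 1.95), and at 1418 against 239 CPM for tamoxifen, or 2.57 (2.51 to 2.63). Fosl2 had ratios of 1.35 and 1.77 at 6.76 and 12.4 CPM in members. Atf4 and Mafk, at the low end, had ratios of 0.17 and 0.45 and of 0.48 and 0.84. Jund was the 1 gene of this list that stayed over 1.5-fold higher in both libraries with depth matched, at 1.46 and 2.01.

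NF-kB, a factor held inactive by inhibitors of the IkB family, induces several of its own inhibitors. Of 21 listed genes, 13 were measured, with medians of 1.08 and 1.06. Of these, 9 were at least 1.5-fold higher in both libraries and 0 lower, beside 11.9% and 6.88% of all genes. With depth matched, 5 were higher, beside 1.37% of all genes, and the medians were 0.44 and 0.45. Tnfaip3, the ubiquitin-editing protein A20 that ends NF-kB signals, was at 114 against 25.6 CPM for oil and 112 against 23.7 CPM for tamoxifen, log2 ratios of 2.16 (2.03 to 2.29) and 2.23 (2.01 to 2.44). Nfkbiz, an atypical IkB protein, was at 22.8 against 5.39 CPM and 27.5 against 7.52 CPM. Both stayed over 1.5-fold higher with depth matched. Traf1, an adaptor of the TNF receptors that is not on the list, was at 21.6 against 4.06 CPM and 21.01 against 3.49 CPM, and its ratios of 2.42 and 2.59 became 1.27 and 1.44. The subunit Rela had ratios of 0.27 and 0.54 and the inhibitor Nfkbib -0.12 and 0.02, and 8 listed genes, Tnf, Il1b and the chemokines Cxcl2, Cxcl10, Ccl3 and Ccl4 among them, had too few UMIs to be measured.

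The 12 genes with the highest ratios also held Gng2, a G protein subunit, and Myadm, a membrane protein of myeloid cells, which are on none of the lists. Gng2 was at 25.7 against 5.44 CPM for oil and 49.0 against 7.43 CPM for tamoxifen, and its ratios of 2.24 and 2.72 became 0.90 and 1.32 with depth matched. Myadm was at 102 against 22.5 CPM and 105 against 17.6 CPM, and its ratios of 2.18 and 2.57 became 1.26 and 1.59. The 82 genes that were higher in all 3 settings also held some that were picked out after their values were seen. They include Ppp1r15a, which restores translation after stress, with ratios of 2.13 and 2.27 (1.64 and 1.72 with depth matched), and Wee1, the kinase that holds CDK1 inactive, with 1.24 and 1.78 (1.13 and 1.36). Neat1, the RNA that builds paraspeckles, had ratios of 1.98 and 2.29 (1.11 and 1.53), Vim, which encodes vimentin, of 1.69 and 1.94 (0.86 and 1.15) and Lmna, which encodes lamin A, of 1.01 and 1.47 (0.68 and 1.18). Of these 82 genes, 55 had a RefSeq promoter, and 18 of those, 32.7%, held the short CRE in at least 1 promoter. The full CRE, the AP-1 site and the CArG box were held by 7.27%, 10.9% and 3.64% of them. The share of 17.8% for the short CRE over all promoters counts each promoter singly. A gene with several promoters has more places for a match, so the percentages are in unlike units. Whether any of the 4 motifs is more frequent in these genes was not tested.

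Targets of the glucocorticoid receptor and of FOXO factors were higher in members, but 1 of them was still past 1.5-fold once depth was matched. Of 16 listed, 13 were measured, with medians of 1.18 and 1.13. Of these, 10 were at least 1.5-fold higher in both libraries and 0 lower, beside 11.9% and 6.88% of all genes. With depth matched, the medians were 0.31 and 0.36, and 1.37% of all genes were higher. Sgk1, a kinase gene that glucocorticoids induce, was at 248.7 against 70.6 CPM for oil and 432 against 124 CPM for tamoxifen, log2 ratios of 1.82 and 1.80 that fell to 0.50 and 0.52. Tsc22d3, which encodes the glucocorticoid-induced leucine zipper, was at 110 against 29.7 CPM and 205 against 47.9 CPM, and was the gene that stayed higher, at 0.79 and 0.96. Cited2 and Irs2 had ratios between -0.06 and 0.20.

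Other stress lists held genes on both sides of 0. Summed, the listed heat shock chaperones were lower in members, at 6654.5 against 9013 CPM for oil and 4929 against 7321 CPM for tamoxifen. Of 14 measured heat shock chaperones of 18, 2 were higher and 5 lower, beside 11.9% and 6.88% of all genes. The medians were -0.17 and -0.12. The inducible Hspa1b was at 13.2 against 4.14 CPM for oil and 12.4 against 3.50 CPM for tamoxifen, ratios of 1.67 and 1.82, though its reads can fall on its near-identical neighbor Hspa1a. Dnajb4 had ratios of 0.88 and 0.75. The mitochondrial chaperones went the other way, Hspd1 at -0.98 and -1.34 and Hspe1 at -0.82 and -1.12. With depth matched, 1 chaperone was higher and 0 lower, beside 1.37% and 0.832% of all genes.

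The next 3 lists stand beside 11.9% higher and 6.88% lower over all genes, or 1.37% and 0.832% with depth matched. Of 14 measured genes of the integrated and endoplasmic reticulum stress responses, of 16 listed, 0 were higher and 2 lower. Their medians were -0.06 and -0.41. Asns, an amino acid response gene, was at 48.5 against 115 CPM and 38.8 against 90.3 CPM, and Sdf2l1, a chaperone cofactor, had ratios of -0.66 and -1.53. Ddit3, which encodes CHOP, had ratios of 0.49 and 0.69, and Dnajb9 of 0.40 and 0.90. With depth matched 0 were higher and 0 lower, Asns being at -0.76 and -0.58. Of 12 measured p53 targets of 16, 4 were higher and 1 lower, with medians of 0.32 and 0.36. The listed p53 targets summed to 866 against 626 CPM for oil and 948 against 716 CPM for tamoxifen. Pmaip1, the BH3-only protein NOXA, was at 13.0 against 4.42 CPM and 13.5 against 4.78 CPM, Aen had ratios of -0.84 and -0.59, and Zmat3 of -0.38 and -0.84. With depth matched 3 p53 targets were higher and 0 lower, with medians of 0.12 and 0.12. In the BCL2 family 10 of 15 were measured, 4 were higher and 0 lower, with medians of 0.43 and 0.38. Bmf was at 1.31 and 1.85, while Bax and Bak1 were at -0.33 and -0.52 and at -0.07 and -0.04. With depth matched 2 of this family were higher, with medians of 0.09 and 0.14, and Bmf was at 0.28 and 0.99.

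**Figure D4:**
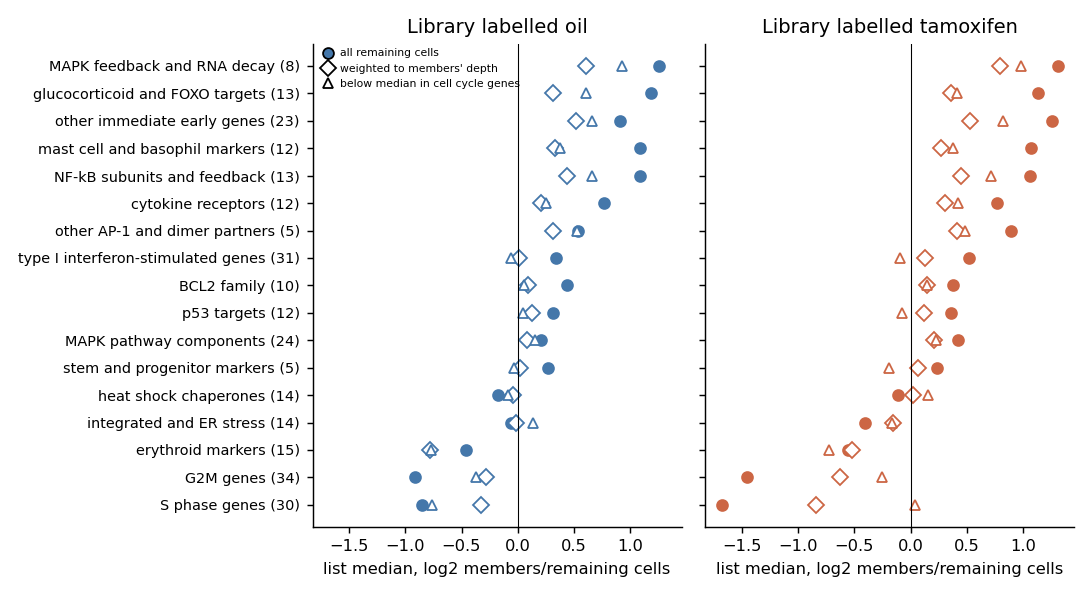
Median log2 ratio of members over remaining cells for each list with at least 5 measured genes (number measured in brackets) in the 2 libraries, against all remaining cells (filled), against remaining cells weighted to the members' depth (open diamonds) and among cells below their library's median in cell cycle genes (open triangles). The medians of 9 lists, the feedback, immediate early and NF-kB lists among them, stay above 0 in all 3 settings in both libraries, while the G2M median of the library labelled oil moves from -0.91 to -0.28 with depth matched.

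Components of the MAP kinase cascade, which acts upstream of the immediate early genes, were looked at next. Of 24 measured MAP kinase pathway components of 25, 2 were at least 1.5-fold higher in both libraries and 0 lower, beside 11.9% and 6.88% of all genes, with medians of 0.20 and 0.42. Of the 24, 20 were above 0 in both libraries, as were 50.1% of all genes. Mapk14, the p38 kinase, was among these, at 111 against 70.8 CPM for oil and 127 against 70.7 CPM for tamoxifen. Hras and Map2k2 had ratios of -0.29 and -0.37 and of -0.16 and -0.24. With depth matched, 0 of the 24 were higher and 0 lower past 1.5-fold in both libraries, beside 1.37% and 0.832% of all genes. In that setting 14 of the 24 were above 0 in both libraries, and the medians were 0.08 and 0.21.

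Cytokine receptors stood higher in members, but not past 1.5-fold with depth matched. Of 19 listed, 12 were measured, with medians of 0.76 and 0.77. Of these, 7 were higher and 0 lower in both libraries, beside 11.9% and 6.88% of all genes. With depth matched 0 were higher, beside 1.37% of all genes, and the medians were 0.21 and 0.31. Kit, the stem cell factor receptor used in the sort, was at 368 against 152 CPM for oil and 476 against 224 CPM for tamoxifen, ratios of 1.28 and 1.09 that became 0.45 and 0.13. Csf2rb2, an IL-3 receptor chain, had ratios of 1.10 and 1.15 that became 0.10 and 0.28. Il6st had ratios of 0.12 and 0.60. Epor, the erythropoietin receptor, had ratios of -0.27 and -0.39. The integrin genes Itga4 and Itgb1 had ratios of 0.24 and 0.17 and of -0.12 and -0.13.

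Mast cell and basophil genes stood high in both libraries, and members held more of them. The listed genes summed to 13668 CPM in members against 6986 CPM in remaining cells for oil and to 13133 against 7228 CPM for tamoxifen. Of 17 listed, 12 were measured, with medians of 1.09 and 1.07. Of these, 10 were higher and 0 lower in both libraries, beside 11.9% and 6.88% of all genes. With depth matched, the medians were 0.33 and 0.27, and 1 gene was higher, beside 1.37% of all genes. That gene was Tpsab1, a tryptase that can share reads with its paralogs, at 48.5 against 8.10 CPM and 59.3 against 8.06 CPM, with depth-matched ratios of 1.66 and 1.75. Cma1, a chymase, was at 1628 against 408 CPM and 1708 against 385 CPM, but its ratios of 2.00 and 2.15 became 0.48 and 0.49. Ms4a2, the beta chain of the IgE receptor, had ratios of 0.50 and 0.39, and Gata2 of 0.41 and 0.61.

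Erythroid genes stood lower in members, with and without depth matching. The listed genes summed to 6010 against 9014 CPM for oil and 7499 against 10186 CPM for tamoxifen. Of 15 measured of 16, 0 were higher and 6 lower in both libraries, beside 11.9% and 6.88% of all genes. The medians were -0.46 and -0.56. With depth matched, 7 were lower, beside 0.832% of all genes, and the medians were -0.78 and -0.52. Hbb-bs, a beta globin gene, was at 1169.96 against 2421 CPM for oil and 817 against 2499 CPM for tamoxifen, ratios of -1.05 (-1.08 to -1.01) and -1.61 (-1.69 to -1.54). Hba-a1, an alpha globin gene with a near-identical copy that can share its reads, was at 2008 against 2191 CPM for oil and 3846 against 3244 CPM for tamoxifen, so it was slightly lower in members of the first library and slightly higher in members of the second. Gata1, a factor of erythroid and mast cells alike, had ratios of 0.05 and -0.05.

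Of the lists for other blood cells, 0 of 12 neutrophil, 0 of 12 T and NK cell, 0 of 10 B and plasma cell and 0 of 10 endothelial and stromal genes were measured. Their sums in members were at most 2.03 CPM. In the library labelled oil the 12 neutrophil genes were at 0 in the members. Monocyte and macrophage genes summed to 138 against 54.7 CPM for oil and 131 against 62.4 CPM for tamoxifen, with 3 of 12 measured. The medians of these 3 were 1.23 and 1.15, and 0.46 and 0.25 with depth matched. Of the 3, 2 were higher in both libraries, beside 11.9% of all genes, and 0 with depth matched, beside 1.37%. Dendritic cell genes summed to 120 against 116 CPM and 156 against 137 CPM, and megakaryocyte genes to 162 against 126 CPM and 149 against 132 CPM. The part of such cells in the results was not tested. Of the 16 stem and progenitor genes, 5 were measured, with medians of 0.26 and 0.23. Of these, 1 was higher and 0 lower, beside 11.9% and 6.88% of all genes. With depth matched 0 were higher, beside 1.37% of all genes, and the medians were 0.02 and 0.06. Spi1 had ratios of 0.59 and 0.61, Runx1 of 0.26 and 0.34, Cd48 of 0.28 and -0.25 and Gfi1b of -0.16 and 0.23.

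Members held fewer cell cycle transcripts. The 34 G2M genes summed to 3972 CPM in members against 6810 CPM in remaining cells for oil and to 2631 against 5428 CPM for tamoxifen. All 34 were measured, with medians of -0.91 and -1.45. Of these, 0 were higher and 29 lower in both libraries, beside 11.9% and 6.88% of all genes. Of 30 S phase genes, 0 were higher and 24 lower, with medians of -0.85 and -1.67. With depth matched, 1 G2M gene and 1 S phase gene were lower, beside 0.832% of all genes. The medians were then -0.28 and -0.63 for G2M and -0.33 and -0.84 for S phase. Without depth matching, 34 G2M and 29 S phase genes were below 0 in both libraries, beside 34.4% of all genes. With depth matched, 27 G2M and 27 S phase genes were. Depth and cell cycle transcripts moved together with membership, and the part of each in the results was not tested.

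Plk1, a mitotic kinase, was at 19.8 against 47.3 CPM for oil and 10.2 against 31.5 CPM for tamoxifen. Aurka, another mitotic kinase, was at 13.9 against 30.7 CPM and 5.93 against 22.5 CPM, and Bub1, a spindle checkpoint kinase, at 8.96 against 21.5 CPM and 4.31 against 14.3 CPM. Among S phase genes, Ung, a DNA repair glycosylase, was at 12.9 against 29.6 CPM and 2.16 against 19.9 CPM. Gins2 was at 18.9 against 38.3 CPM and 3.77 against 26.4 CPM. The tamoxifen member values rest on 4 UMIs for Ung, 7 for Gins2, 8 for Bub1, 11 for Aurka and 19 for Plk1. With depth matched the log2 ratios were -0.53 and -0.69 for Plk1, -0.40 and -1.06 for Aurka and -0.62 and -0.96 for Bub1. They were -0.50 and -2.12 for Ung and -0.41 and -1.99 for Gins2. At the other end, Kif23 had ratios of -0.12 and -0.16, Anln of -0.57 and -0.12, Mcm6 of -0.31 and -0.66, and Rfc2 of 0.14 and 0.05.

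Several of the 10 lowest genes belong to no list. C2cd4a was at 23.5 against 91.7 CPM for oil, a log2 ratio of -1.96 (-2.22 to -1.72), and 15.6 against 66.4 CPM for tamoxifen, or -2.09 (-2.67 to -1.56), and its depth-matched ratios were -1.26 and -1.23. Cd24a, a surface glycoprotein of immature blood cells, was at 25.03 against 62.9 CPM and 31.8 against 74.96 CPM, and its depth-matched ratios of -1.64 and -1.20 were no closer to 0 for oil than the main ratio of -1.33. Timm8a1, of mitochondrial protein import, had ratios of -1.29 and -1.76 (-0.61 and -0.97 with depth matched), and Mettl1, a tRNA methyltransferase, of -1.26 and -2.07 (-0.66 and -1.29). The centromere genes Cenpm and Cenph and the gene Arhgap19 had ratios from -1.22 to -2.49. With depth matched Cenpm was at -0.67 and -1.63, Arhgap19 at -0.67 and -0.71, and Cenph, at -0.58 and -0.59, was no longer past 1.5-fold for oil.

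The levels were then followed along the ranking, with all kept cells split into 10 rank groups over both libraries. Group 1 holds the 590 and 982 cells with no UMI of the 6 genes, with medians of 5188.5 and 6503 UMIs, and group 2 the next 421 and 668 cells, so these groups differ in size. Group 1 went against the trend, with Zfp36 at 18.2 and 13.2 CPM, Rgs1 at 10.5 and 11.6 CPM, Jund at 166 and 133 CPM and the G2M genes at 5967 and 4739 CPM. The ranges below are from group 2. From group 2 to group 10, Zfp36 went from 8.27 to 235 CPM for oil and from 8.24 to 187 CPM for tamoxifen. Dusp1 went from 5.79 to 126 CPM and from 4.82 to 127 CPM. Jund went from 118 to 1105 CPM and from 116 to 1416 CPM, and Rgs1 from 2.31 to 119 CPM and from 4.39 to 111 CPM. Much of this lay in the last step, as Rgs1 was at 26.5 and 45.3 CPM in group 9 and Zfp36 at 103 and 77.5 CPM. The G2M genes fell between these groups, from 8833 to 3976 CPM and from 7603 to 2632 CPM. The median depth fell with them, from 13013 to 5176 UMIs and from 12729.5 to 4392.5 UMIs.

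**Figure D5:**
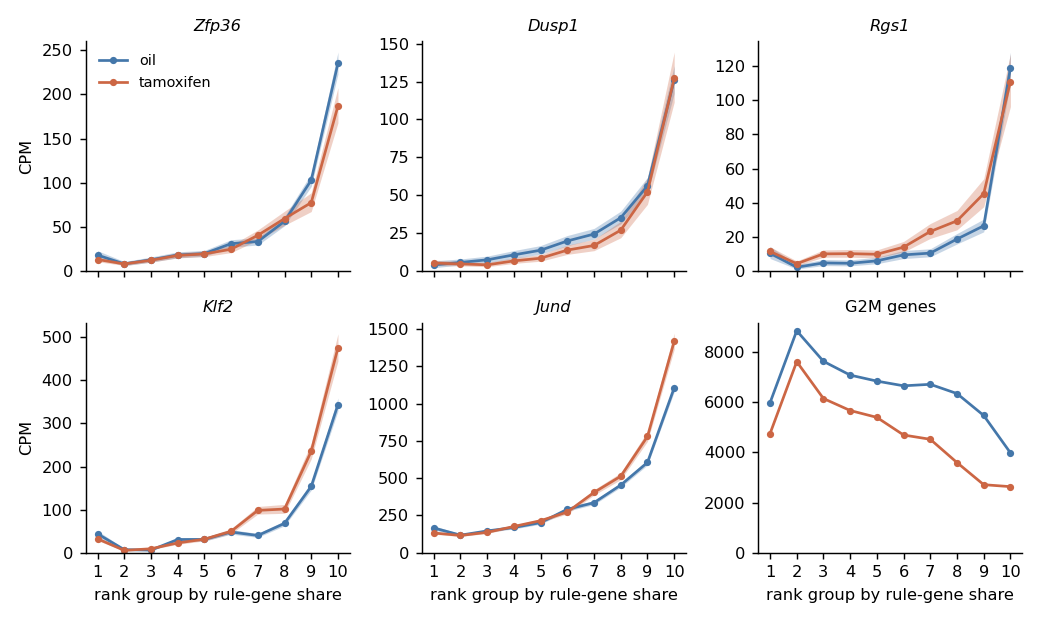
Level (CPM, with exact 95% Poisson intervals for single genes) of 5 genes that the rule did not use and of the summed G2M list in 10 rank groups of kept cells, from the lowest (1) to the highest (10) share of the 6 rule genes. Zfp36, Dusp1, Rgs1, Klf2 and Jund are highest in group 10 in both libraries, and the G2M genes are lowest there.

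The libraries were last compared within the members, to see whether the differences between injections were the same in these cells as in the others. Usp18, an interferon-induced gene that limits type I interferon signaling, was at 7.44 CPM in the members for oil and 22.1 CPM for tamoxifen, a log2 ratio of tamoxifen over oil of 1.57 (0.92 to 2.22). In remaining cells it was at 5.44 and 15.2 CPM, a ratio of 1.48 (1.30 to 1.67). Isg15, the ubiquitin-like protein that Usp18 removes from its targets, was at 45.0 and 184 CPM in members, a ratio of 2.03 (1.80 to 2.27), and at 48.1 and 111 CPM in remaining cells, a ratio of 1.21 (1.15 to 1.27). The ratios differed by 0.82 (0.58 to 1.06) for Isg15 and by 0.09 (-0.55 to 0.73) for Usp18. The Isg15 difference is outside counting error, but it did not extend over the list. The 31 measured interferon-stimulated genes of 44 had a median ratio of 0.62 in members, with 29 above 0, and of 0.64 in remaining cells, with 27 above 0. Over all 9140 genes the median ratios were -0.04 in members and -0.06 in remaining cells, with 4181 and 3567 above 0.

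Read the other way, members over remaining cells, the 31 interferon-stimulated genes had medians of 0.34 and 0.52. Of these, 7 were at least 1.5-fold higher in both libraries and 0 lower, beside 11.9% and 6.88% of all genes. With depth matched 0 were higher, beside 1.37% of all genes. Samhd1, a nucleotide hydrolase, was at 157 against 85.5 CPM and 212 against 107 CPM. Gbp2, a guanylate-binding protein, had ratios of 1.37 and 1.32, Ifit2 of -0.97 and -0.58 and Oas1a of -0.02 and -0.66. Isg15 had ratios of -0.10 (-0.28 to 0.09) and 0.73 (0.57 to 0.88). Among cells below the median in cell cycle genes they were -0.67 for oil and -0.26 (-0.55 to 0.02) for tamoxifen. With depth matched the Isg15 ratios were -0.28 and 0.52.

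For the rule genes as a set, the median ratio between injections was nearer 0 in members than in remaining cells, which a common limit on their share in part fixes. The median of the 6 ratios of tamoxifen over oil was 0.09 in members and -0.63 in remaining cells. Egr1 had the largest ratio of the 6 in members, 0.70 (0.55 to 0.85), at 295 CPM for tamoxifen against 181 CPM for oil. Its ratio in remaining cells was 0.04 (-0.09 to 0.17), so for Egr1 the remaining cells were nearer 0. Some genes outside the rule, Jund, Dusp1 and Klf2 among them, also had unlike ratios in members and remaining cells. These 3 genes were highest in the top group of the ranking by the rule genes' share. The median share was 3017 CPM for oil and 2927 CPM for tamoxifen in members. In remaining cells it was 473 CPM for oil and 280 CPM for tamoxifen. Whether the 3 genes differed between injections beyond this difference in share was not tested. Jund had a ratio of 0.36 (0.29 to 0.42) in members and -0.31 (-0.34 to -0.27) in remaining cells, and Dusp1 of 0.01 (-0.21 to 0.22) and -0.97 (-1.11 to -0.84). Klf2 had ratios of 0.47 (0.35 to 0.58) and -0.19 (-0.27 to -0.11). In contrast, Sgk1 had nearly the same ratio in both, 0.80 (0.67 to 0.92) and 0.81 (0.75 to 0.86), while Tsc22d3 had 0.90 and 0.69. S phase genes had median ratios of -1.15 in members and -0.47 in remaining cells, and G2M genes of -0.93 and -0.44. The medians over all 9140 genes were -0.04 and -0.06.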

How the data were processed

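The values are raw UMI counts that the authors deposited as 1 matrix a library, made with Cell Ranger 3.0.2 (mm10) from 3′ reads of the Chromium V3 kit. Seurat is also named in the submitters' processing notes. No cell annotation was used, and doublets were not removed. The libraries hold 70239576 (oil) and 65028672 (tamoxifen) UMIs over 31053 genes.

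In each library, counts of the members and of the remaining cells were summed separately and scaled to CPM. Log2 ratios have exact conditional binomial intervals, CPM exact Poisson intervals and shares exact Clopper-Pearson intervals, all at 95% and covering counting error only. With 1 library per group no test was run. A gene was called when it was at least 1.5-fold higher or lower in both libraries. The interval, call and depth-weighting steps were tested on simulated data.

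Named genes are the 6 rule genes, the 12 genes with the highest and the 10 with the lowest ratios at 20 CPM or more (ordered by the library nearer 0), the 2 highest and 2 lowest of each list with at least 5 measured genes, Usp18, Isg15, Kit, Itga4 and Itgb1. Some genes that this rule names are not reported here. The members, the 24 gene lists and the tests were chosen with earlier results of these data known. For depth matching, remaining cells were weighted to hold the same share of cells as the members in each of 10 bins of UMI count. Alternatives were other cell filters, member limits, rankings, weights, scales and count minimums. Thinning used 1 random draw. Gene positions are from GENCODE M21 and promoter sequences from RefSeq (GRCm38.p6). TMM factors came from edgeR 4.0.16 in R 4.3.3, and all else from Python 3.11.15 with pandas 2.3.3, scipy 1.17.1, numpy 2.4.6 and matplotlib 3.10.9.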

Additional observations from a re-analysis of the deposited data

Results flagged for a closer look

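Hba-a1 was set apart because its log2 ratio of members over remaining cells had opposite signs in the libraries, with both counting intervals clear of 0. It was -0.13 (-0.15 to -0.10) for oil and 0.25 (0.21 to 0.28) for tamoxifen. The difference was not tested, since each group has 1 library. With depth matched both ratios were below 0, at -0.78 and -0.23. Over all 9140 genes, 12 had such opposite signs.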

How the results depend on the processing

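No paired analysis was possible because there was 1 library a group and no test. Comparing only cells below the median in cell cycle genes, and requiring the counting intervals to clear 0, were chosen after seeing the data. The share ratio of -1.33 moved to -0.64 with the stricter cell filter (1000 genes, 5% mitochondrial), to -1.15 with the top 20% of cells, to -1.03 without Jun in the ranking, and to -0.0145 with each library ranked on its own, which fixes the share. Of 9140 genes tested, 1087 were higher, and some alternatives tested fewer genes. The count was 502 of 3678 under the strict filter (519 lower) and 269 of 7478 among cells low in cell cycle genes. It was 524 of 7282 with thinned cells and 664 of 6261 with at least 1000 UMIs. With 9140 tested it was 691 with equal weight for every cell, 125 with depth matched and 512 with TMM. Counts over unlike numbers of tested genes do not give the change in the share. The 629 lower genes became 124 of 7478 tested among cells low in cell cycle genes. Of 9140 tested they became 975 with the top 5%, 272 with the top 20%, 76 with depth matched and 1261 with TMM. Requiring intervals clear of 0 gave 1037 and 579. The median of the other immediate early genes stayed above 0 in every alternative. For oil it moved from 0.91 to 1.73 (strict filter), 0.66 (low in cell cycle genes), 1.15 (top 5%), 0.51 (depth matched) and 0.71 (TMM), and for tamoxifen from 1.25 to 0.82 (low in cell cycle genes), 0.92 (thinned) and 0.53 (depth matched). Of values past 1.5-fold, 12 changed sign. Among cells low in cell cycle genes these were, for tamoxifen, the S phase median (0.0344), Arhgap19 (0.27), Plk1 (0.0116), Cenph (0.45), Mcm6 (0.44), Bub1 (2.13, interval -3.40 to 5.17) and Isg15 (-0.26), and for oil Plk1 (0.19). With the strict filter they were Il6st (-0.56) and Bmf (-0.35), and with the top 20% Zmat3 (0.0367) and Oas1a (0.0062), all for tamoxifen. The cause of these 12 changes was not tested. A further 126 smaller values changed sign. The 362 members in the library labelled tamoxifen, with 1855897 UMIs, set the counting precision there.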

Other observations

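Of the 23 genes that stood at least 1.5-fold lower in members in all 3 settings, Ppy, which encodes pancreatic polypeptide, had the lowest ratios in both libraries. It had 24 UMIs, or 4.06 CPM, in members against 18.5 CPM in remaining cells for oil, and 6 UMIs, or 3.23 CPM, against 25.6 CPM for tamoxifen. Its log2 ratios were -2.19 and -2.98, and -2.14 and -2.68 with depth matched. Tac2, a tachykinin gene, was at 17.1 against 46.9 CPM and 20.5 against 47.0 CPM, with depth-matched ratios of -1.32 and -0.85. Odc1, the polyamine synthesis enzyme that Myc controls, had ratios of -1.07 and -1.80 (-0.65 and -1.19 with depth matched). These genes were picked out after their values were seen.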
